A study of Sus scrofa with 15 samples.

Results

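TOP2A, CCNB2 and NUF2 are genes that cells transcribe mainly while they prepare for and pass through division. They were chosen by gene symbol as a small gauge of dividing cells in pig fat, and each was measured by 1 probe set, so they were 3 of the 3272 probe sets in the table and 3 of the 1260 genes that it names. TOP2A encodes topoisomerase II alpha, which untangles replicated DNA. CCNB2 encodes cyclin B2, a partner of the kinase that drives entry into mitosis. NUF2 encodes a subunit of the NDC80 complex, which ties the kinetochore of each chromosome to spindle microtubules. Mature adipocytes do not divide, and dividing cells in adipose tissue are known mostly among progenitors, vessel cells and leukocytes.

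Backfat, from the inner layer of the fat over the back, was taken at slaughter from 15 castrated male Iberian pigs, with 1 array per pig. The 7 control pigs ate a standard diet of 3130 kcal per kg and the 8 high-oleic pigs an oleic acid enriched diet of 3360 kcal per kg, for 24 weeks from 28 kg live weight. Rations were matched for energy and protein by giving control pigs 10% more feed. The age of the pigs is not given in the sources used here. Live weight at slaughter ran from 112 to 133 kg on the control diet, with a median of 115, and from 104.5 to 116 kg (median 109) in high-oleic pigs. In these bulk samples, more dividing cells and more of a transcript per cell cannot be told apart. Of 20 adipocyte markers 3 were in the table, and their mean log2 signal of 9.13 to 10.34 over the pigs lay above every array's median, on a scale that ran from 1.49 to 14.36. Array medians lay between 6.38 and 6.67. No batch is named in the labels. Each pig was 1 replicate, so precision is limited by how many arrays there were.

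TOP2A varied 5.73-fold between the lowest and the highest pig. Its log2 signal on the control diet ran from 5.52 through a median of 5.88 to 7.53. In high-oleic pigs it ran from 5.01 through a median of 5.69 to 7.14. Control animal 7, at 7.53, and high-oleic animal 8, at 7.14, stood above all others, of which the next was control animal 5 at 6.37. The lowest signal was that of high-oleic animal 2, at 5.01. The diet groups overlapped over most of their range.

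CCNB2 varied 3.37-fold between pigs, in the lower part of the signal scale. Its log2 signal ran from 3.25 through a median of 3.52 to 5.0 on the control diet and from 3.26 through a median of 3.72 to 4.35 on the high-oleic diet. Control animal 7 was again the highest, at 5.0, and high-oleic animal 8 followed at 4.35. High-oleic animals 1 and 6 came next, at 4.32 and 4.18, and the remaining 11 pigs lay at or below 3.96. Of all tested probe sets 7.8% had a lower mean signal than the 3.78 of CCNB2, and the deposited table has no detection calls.

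NUF2 varied 4.8-fold and had a different highest pig. Its log2 signal ran from 5.39 through a median of 5.74 to 6.99 on the control diet. On the high-oleic diet it ran from 4.73 through a median of 5.21 to 5.60, so the groups overlapped only between 5.39 and 5.60. Control animal 1 was the highest at 6.99, followed by control animals 7 at 6.15 and 3 at 6.02. High-oleic animal 8, second highest for both TOP2A and CCNB2, ranked 11 of 15 for NUF2, at 5.22. The spread between pigs is not itself a finding for any of the 3 genes, because every probe set of the deposited table had at least 3 arrays 1.5-fold or more from its own median.

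**Figure D1:**
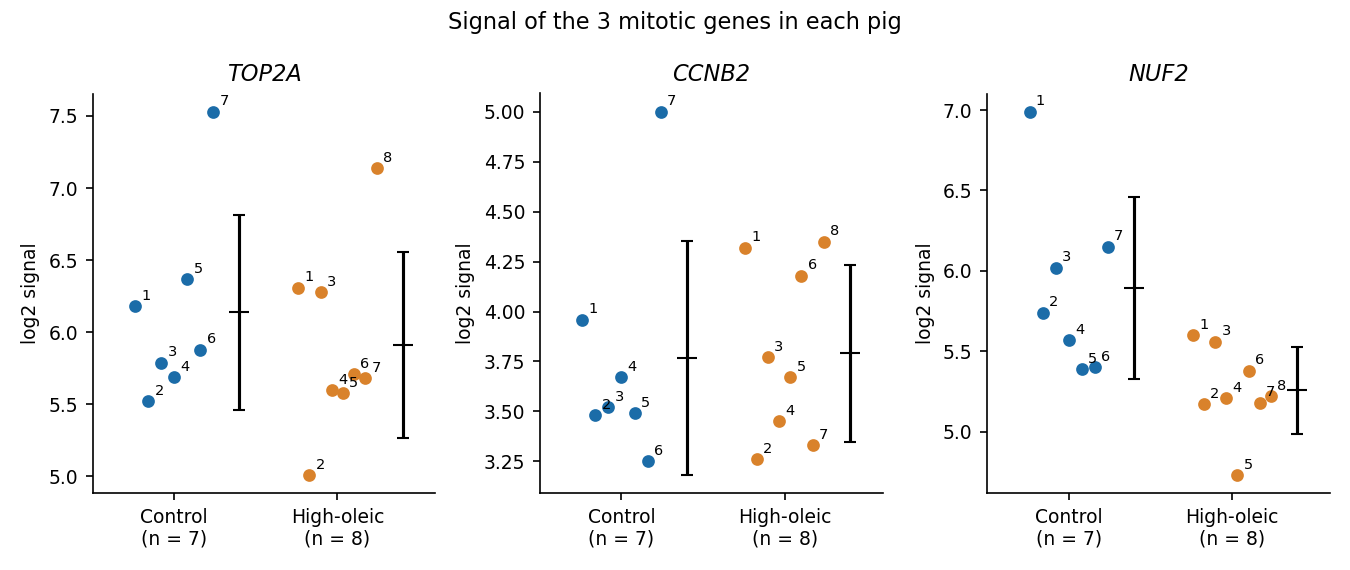
Log2 signal of TOP2A, CCNB2 and NUF2 (vertical axes) in each pig by diet, with the animal number beside each point and the mean with SD as a bar. Control animal 7 is highest for TOP2A (7.53) and CCNB2 (5.0), control animal 1 for NUF2 (6.99), and the high-oleic pigs lie low for NUF2 alone.

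The 3 genes did not vary as 1 unit over the 15 pigs. TOP2A and CCNB2 rose and fell together, with a Pearson r of 0.807 (permutation p = 0.00048, adjusted p = 0.00144 over the 3 pairs) and a Spearman rho of 0.661 (permutation p = 0.00882, adjusted p = 0.0265). NUF2 gave r = 0.334 with TOP2A (permutation p = 0.217, adjusted p = 0.217), with rho = 0.464 (permutation p = 0.0838, adjusted p = 0.117). With CCNB2 it gave r = 0.345 (permutation p = 0.202, adjusted p = 0.217), with rho = 0.421 (permutation p = 0.117, adjusted p = 0.117). Whether these correlations differ from each other was not tested. Over all pairs of tested probe sets the median r was 0.016, and 0.713% of pairs had an r as high as that of TOP2A and CCNB2.

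The relation of TOP2A and CCNB2 rested in good part on the pair of pigs with the highest signals. Without control animal 7 and high-oleic animal 8, the 2 farthest from the median of TOP2A, r was 0.493 over 13 pigs (permutation p = 0.0885, adjusted p = 0.246). Leaving out control animal 7 alone gave r = 0.655 (permutation p = 0.00905, adjusted p = 0.0271), and leaving out high-oleic animal 8 alone gave r = 0.786 (permutation p = 0.00306, adjusted p = 0.00918). For TOP2A with NUF2 the r without both pigs was 0.412 (permutation p = 0.164, adjusted p = 0.246), and for CCNB2 with NUF2 it was 0.320 (permutation p = 0.288, adjusted p = 0.288).

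Within the high-oleic diet TOP2A ranked the pigs much as CCNB2 and NUF2 each did, while CCNB2 with NUF2 missed the threshold. The rank correlation among these 8 pigs was 0.881 for TOP2A with CCNB2 (exact permutation p = 0.00724, adjusted p = 0.0217 over 3 pairs). It was 0.810 for TOP2A with NUF2 (exact permutation p = 0.0218, adjusted p = 0.0327) and 0.690 for CCNB2 with NUF2 (exact permutation p = 0.0694, adjusted p = 0.0694). On the linear scale the same pairs gave r = 0.772 (exact permutation p = 0.0170, adjusted p = 0.0511), r = 0.376 (exact permutation p = 0.334, adjusted p = 0.334) and r = 0.433 (exact permutation p = 0.290, adjusted p = 0.334). Rank and linear values thus differed most for the pairs with NUF2. High-oleic animal 8, first of the 8 for TOP2A and CCNB2, lay below animals 1, 3 and 6 for NUF2.

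Within the control diet no pair passed after adjustment. TOP2A and CCNB2 gave r = 0.880 among the 7 control pigs (exact permutation p = 0.0454, adjusted p = 0.136), but rho = 0.464 (exact permutation p = 0.302, adjusted p = 0.454), with control animal 7 far above the rest for both genes. TOP2A and NUF2 gave r = 0.261 and rho = 0.143 (exact permutation p = 0.527 and 0.783). CCNB2 and NUF2 gave r = 0.486 and rho = 0.714 (exact permutation p = 0.224 and 0.0881). After each diet mean was subtracted, the r over 15 pigs was 0.826 for TOP2A with CCNB2 (permutation p = 0.00039, adjusted p = 0.00117). It was 0.460 for CCNB2 with NUF2 (permutation p = 0.0876, adjusted p = 0.131) and 0.286 for TOP2A with NUF2 (permutation p = 0.291, adjusted p = 0.291).

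**Figure D2:**
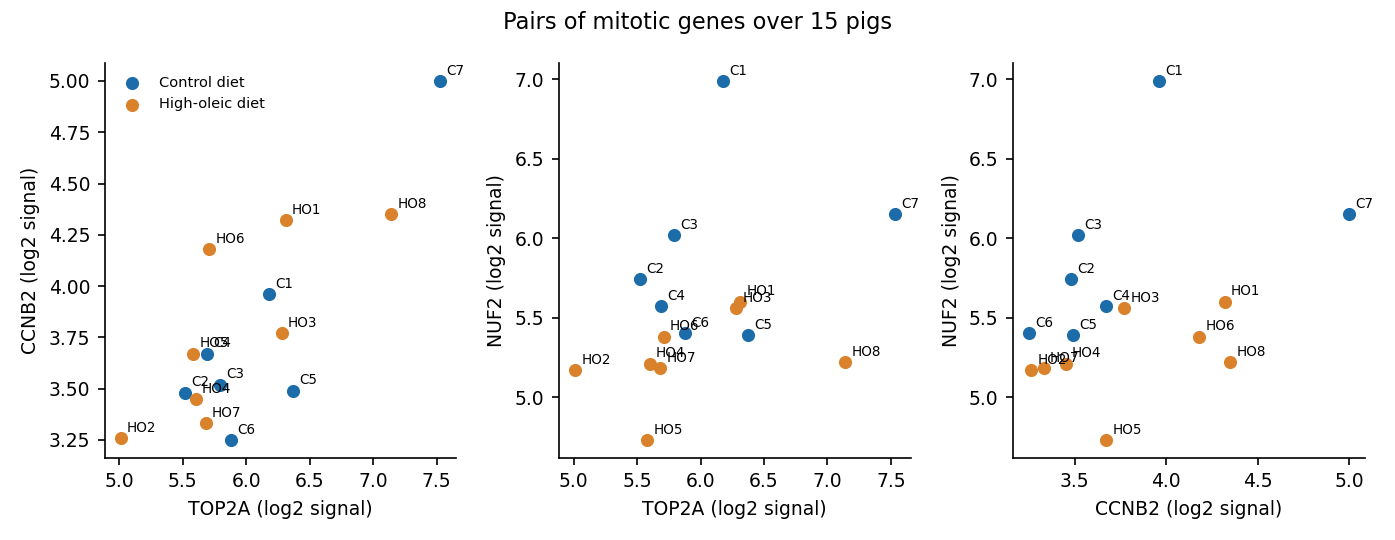
Log2 signal of each pair of genes in 15 pigs (C, control; HO, high-oleic; the number is the animal). TOP2A and CCNB2 share their highest pig, C7, and their second, HO8 (r = 0.807), whereas C1 stands alone for NUF2.

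Other genes of cell division did not follow the 3 genes as a block. Of 225 genes written in 5 cell cycle lists 16 were in the table, 3 of them TOP2A, CCNB2 and NUF2, and proliferation markers such as MKI67, CCNB1 and CDK1 were not analysed here. The 7 further genes of mitosis and DNA replication had a median r of 0.232 with TOP2A, 5 of 7 being positive. The median r with TOP2A was 0.074 over all other tested probe sets, of which 58.0% were positive. With CCNB2 the median of the 7 was 0.182 (6 of 7 positive), against 0.054 for all others (58.7% positive). With NUF2 it was 0.073 (4 of 7 positive), against 0.015 for all others (51.4% positive). These correlations share the same 15 arrays and are given as a description.

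Among the other kinetochore genes ZWILCH was the nearest to NUF2. ZWILCH, part of the complex that recruits dynein to kinetochores, had r = 0.486 with NUF2, and 0.768 on the control and 0.565 on the high-oleic diet. The 0.486 was above the 0.334 and 0.345 of NUF2 with TOP2A and CCNB2. ZWILCH was highest, at 8.81, in control animal 1, the pig with the highest NUF2. With TOP2A and CCNB2 it gave -0.015 and 0.035. NSL1, a subunit of the complex to which NDC80 binds, had r = 0.195, and 0.483 on the control and -0.430 on the high-oleic diet. With TOP2A, NSL1 gave 0.836 on the control and -0.696 on the high-oleic diet. CENPH, a component of the inner kinetochore, had r = -0.314 with NUF2. The highest value in these lists was that of HMMR, a spindle-associated protein and hyaluronan receptor, with r = 0.633 for NUF2 and 0.424 for TOP2A. HMMR was low on the signal scale, between 3.09 and 4.53, and highest in control animal 7. Without that pig its r was 0.581 with NUF2, 0.176 with TOP2A and -0.137 with CCNB2. By diet, HMMR with TOP2A gave 0.647 in control and -0.043 in high-oleic pigs.

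MYBL2, a transcription factor of dividing cells, had r = 0.337 with TOP2A and -0.497 with NUF2. Its values differed by diet. In high-oleic pigs they were 0.720 with TOP2A, 0.793 with CCNB2 and 0.188 with NUF2. In control pigs they were 0.219, -0.047 and -0.761. The lowest MYBL2 signal, 3.78, fell in control animal 1, the pig with the highest NUF2. Over all pigs the condensin subunit NCAPD3 likewise had r = 0.308 with TOP2A and -0.393 with NUF2. GINS3, a subunit of the replication helicase, had r = 0.232 with TOP2A, 0.207 with CCNB2 and 0.073 with NUF2.

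All 6 measured regulators of the G1 phase had a positive r with both TOP2A (median 0.312) and CCNB2 (median 0.257). Over all other tested probe sets 58.0% were positive with TOP2A (median 0.074) and 58.7% with CCNB2 (median 0.054). The highest of the 6 was TFDP2, a dimerisation partner of E2F factors, at 0.526 with TOP2A. The stress-induced GADD45B stood at 0.461 with TOP2A, GADD45G at 0.335, and the proto-oncogene MYC at 0.287. By diet, TFDP2 gave 0.878 with TOP2A in control and 0.184 in high-oleic pigs, and MYC -0.117 and 0.658. GADD45B gave 0.389 and 0.497, and GADD45G 0.068 and 0.484. The cyclin-dependent kinase inhibitor CDKN1B, picked out after its values were seen, was at 0.064 with TOP2A and 0.550 with NUF2. In high-oleic pigs CDKN1B was at -0.541 with TOP2A and -0.549 with CCNB2, and in control pigs at 0.567 and 0.840. TFDP2 and CDKN1B were highest in control animal 7, and GADD45B and GADD45G in high-oleic animal 8. Those pigs also had the highest TOP2A and CCNB2 signals. With NUF2, 3 of the 6 G1 genes were positive, with a median of 0.011. Over all other tested probe sets 51.4% were positive with NUF2, with a median of 0.015.

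**Figure D3:**
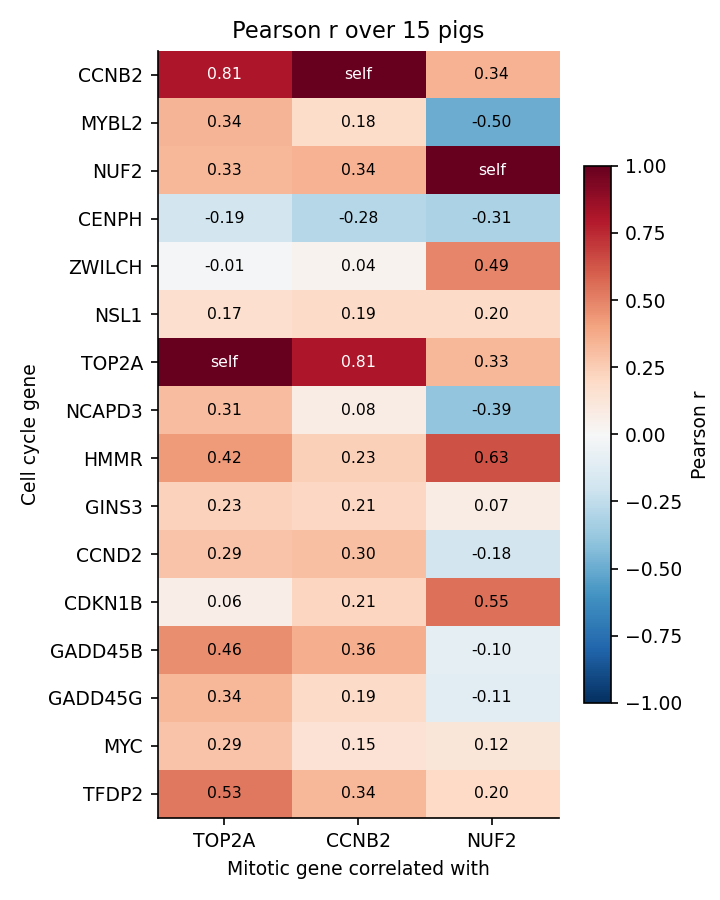
Pearson r over 15 pigs between each measured cell cycle gene (rows) and TOP2A, CCNB2 and NUF2 (columns), from -1 (blue) to 1 (red). TOP2A and CCNB2 at 0.81 stand out, while NUF2 is nearest to HMMR at 0.63.

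The genes most like the mean of the 3 centred signals were PTGS2, JAML, MLF1, ATF3, an unnamed locus (LOC100152327), CD3E, GPBP1L1 and CLTA, with r from 0.711 down to 0.631 among 1257 other genes. PTGS2 is the inducible cyclooxygenase, JAML a junctional adhesion molecule of leukocytes, ATF3 a stress-induced transcription factor, CD3E a chain of the T cell receptor complex and CLTA the clathrin light chain A. Control animal 7 was the highest of 15 pigs for every one of these 8 genes. Without that pig 0 of them were still among the 8 most alike. Other pigs moved the list less: 3 of the 8 were kept without control animal 1, 4 without high-oleic animal 2, and 5 without control animal 5 or high-oleic animal 8. With each remaining pig left out 6 to 8 were kept, and by rank correlation 3.

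PTGS2 was nearer to NUF2, with r = 0.745, than to TOP2A at 0.552 or CCNB2 at 0.443. Without control animal 7 these values were 0.738, 0.263 and 0.048. CD3E was near to TOP2A, with r = 0.734, and to CCNB2 at 0.718, but not to NUF2 at 0.105. CD3E was dim, at 2.01 to 3.59, and its 3 highest pigs were control animal 7 at 3.59, high-oleic animal 8 at 3.56 and high-oleic animal 3 at 3.55. Without control animal 7 and high-oleic animal 8 the r of CD3E was 0.333 with TOP2A and 0.408 with CCNB2. The other measured T and NK genes were less near to TOP2A over all pigs. Their r was 0.01 for CD247, -0.281 for CD2, 0.244 for CD8A and 0.133 for GZMH. With CCNB2 these genes gave 0.096, -0.05, 0.402 and 0.253.

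The genes that ran most against the 3 were LEP, CRYAB, KCTD8 and CD59, with r of -0.745, -0.714, -0.711 and -0.689. Control animal 7 ranked 14 or 15 of 15 pigs for each of them. On the control diet these r were -0.781, -0.954, -0.689 and -0.818, and on the high-oleic diet -0.602, -0.307, -0.753 and -0.392. LEP encodes leptin, the adipocyte hormone, and CRYAB a small heat shock protein. LEP was nearest to a mirror of NUF2, with r = -0.806 over all pigs, -0.810 on the control diet, -0.608 on the high-oleic diet and -0.746 without control animal 1. With TOP2A it gave -0.571 and with CCNB2 -0.449. Leaving out control animal 7 gave LEP an r of -0.384 with TOP2A, -0.183 with CCNB2 and -0.789 with NUF2. The 3 measured adipocyte markers together gave r = -0.741 with NUF2, -0.325 with TOP2A and -0.280 with CCNB2. For TOP2A and CCNB2 the score gave -0.097 and -0.013 without control animal 7, and -0.623 and -0.456 without high-oleic animal 8. The 3 markers did not run alike: RBP4, a retinol carrier, had r = 0.223 with TOP2A, 0.276 with CCNB2 and -0.151 with NUF2, and 0.412 with NUF2 on the control diet.

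PCLAF, a PCNA-binding factor of replicating cells, lay just outside the 8 most alike genes, at r = 0.621, and was picked out after its values were seen. Its r was 0.524 with TOP2A, 0.514 with CCNB2 and 0.484 with NUF2. In high-oleic pigs these values were 0.616, 0.684 and 0.742, and in control pigs 0.368, 0.506 and 0.363. Among control pigs without control animal 7 they were -0.373, -0.022 and 0.312. Its highest pigs were high-oleic animal 1 at 5.95, control animal 7 at 5.29 and high-oleic animal 8 at 5.26. Its lowest were high-oleic animals 5 and 4 at 3.9 and 4.0, which were also low for NUF2, at 4.73 and 5.21.

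Markers of cells that could hold the dividing population moved with some of the 3 genes, often differently by diet, and their part in the result was not tested. The score of the T and NK cell list, with 5 of 27 genes measured, had r = 0.111 with TOP2A, 0.30 with CCNB2 and 0.289 with NUF2. Its mean log2 signal was 4.05 to 5.43 on the control diet and 4.49 to 5.71 on the high-oleic diet, with CD3E as its dimmest gene. Within the control diet the score gave r = 0.870 with NUF2, and 0.829 without control animal 1. On the high-oleic diet it gave 0.227. For the fibroblast and progenitor list, with 10 of 23 genes measured, r was 0.476 with TOP2A, 0.159 with CCNB2 and 0.025 with NUF2. In high-oleic pigs it was 0.797 with TOP2A and 0.723 with CCNB2, and in control pigs 0.213 and -0.182. Over all pigs without high-oleic animal 8 the list gave 0.318 with TOP2A and 0.006 with CCNB2. Its mean log2 signal was 9.25 to 10.74 on the control diet and 9.50 to 10.71 on the high-oleic diet, where high-oleic animal 8 was the highest. The macrophage list, with 10 of 20 measured, gave 0.144, 0.233 and 0.009 with TOP2A, CCNB2 and NUF2. Its sign differed by diet, at -0.399 in control and 0.277 in high-oleic pigs for TOP2A, and -0.495 and 0.483 for CCNB2. Without high-oleic animal 8 the value for TOP2A was -0.111. The endothelial list, with 5 of 19, gave 0.173, 0.120 and 0.183. No probe set of the table was listed at 0.

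The interferon response list, with 16 of 31 genes measured, gave r = 0.440 with NUF2, -0.206 with TOP2A and -0.029 with CCNB2. Control animal 1, the highest for NUF2, also had the highest interferon score, at 3.11 above its mean over pigs on the log2 scale. Mean log2 signals of that list were 7.03 to 11.18 in control and 7.36 to 10.99 in high-oleic pigs. High-oleic animal 2 had a nearly equal score of 2.92, yet a NUF2 signal of 5.17, ranked 14 of 15. Without control animal 1 the r with NUF2 over all pigs was -0.126. Among the other 6 control pigs it was 0.788, and on the high-oleic diet it was -0.007. The smooth muscle and pericyte list, with 10 of 20 measured, gave r = 0.509 with NUF2 and 0.172 with TOP2A. Within the control diet these were 0.459 and -0.052, and within the high-oleic diet -0.180 and 0.611. Its mean log2 signal was 8.18 to 9.97 in control and 8.13 to 8.85 in high-oleic pigs. The skeletal muscle list, with 12 of 27 measured, gave -0.311 with TOP2A, -0.495 with CCNB2 and -0.383 with NUF2. Its mean log2 signal was 2.88 to 8.17 on the control diet and 3.39 to 7.63 on the high-oleic diet. The last 3 lists were thinly measured. B and plasma cells (2 of 16) gave r = 0.122, 0.294 and 0.408 with TOP2A, CCNB2 and NUF2. Erythroid cells (3 of 20) gave 0.131, 0.133 and -0.341, and neutrophils and mast cells (2 of 19) 0.396, 0.288 and -0.066. By diet, the erythroid list gave -0.309 in control and 0.617 in high-oleic pigs with TOP2A, and -0.219 and 0.0 with NUF2. The neutrophil and mast cell list gave 0.144 and 0.534 with TOP2A, and -0.683 and 0.087 with NUF2. The part of these programs in the signals of TOP2A, CCNB2 and NUF2 was not tested.

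Signals of the arrays themselves also moved with the genes, and their part was not tested. For the spiked-in bacterial control transcripts, the mean of 7 probe sets gave r = 0.323 with TOP2A, 0.264 with CCNB2 and -0.512 with NUF2. It was highest in high-oleic animal 8 and lowest in control animal 1. Without high-oleic animal 8 these values were -0.001, 0.069 and -0.546. The first principal component of all tested probe sets, with 23.3% of the variance, was likewise highest in high-oleic animal 8 and lowest in control animal 1. Its r was 0.383 with TOP2A, 0.175 with CCNB2 and -0.480 with NUF2, and -0.944 with NUF2 on the control diet. Leaving out high-oleic animal 8 gave 0.066 with TOP2A, -0.079 with CCNB2 and -0.518 with NUF2. The actin 3′ minus 5′ signal, which rises as RNA degrades, gave -0.451, -0.342 and -0.448. Leaving out high-oleic animal 8 gave -0.607, -0.419 and -0.433. In control pigs the actin values were -0.686, -0.663 and -0.568, and in high-oleic pigs -0.296, -0.06 and -0.732. Control animal 7 had the second lowest value of the actin signal and the highest array median, 6.67. The array median gave r = 0.406 with TOP2A, and 0.678 on the control and 0.09 on the high-oleic diet. With CCNB2 and NUF2 it gave 0.275 and -0.095. With each array centred on its median, TOP2A and CCNB2 gave r = 0.781 (permutation p = 0.00068, adjusted p = 0.00204).

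Between diets, the mean of NUF2 was lower in the high-oleic pigs, the differences for TOP2A and CCNB2 were smaller than their SEs, and 0 of the 3 passed the test adjusted over all probe sets, as did 0.0% of all 3255. NUF2 was 5.89 ± 0.56 (SD, n = 7) on the control diet and 5.26 ± 0.27 (SD, n = 8) on the high-oleic diet. All 8 high-oleic pigs lay below the control median and 6 of 8 below the lowest control pig. The difference was -0.64 on the log2 scale (SE 0.25, 95% interval -1.16 to -0.11), a signal 0.64 times that of the control pigs. In limma with Benjamini-Hochberg adjustment over 3255 probe sets its adjusted p was 0.999, with an unadjusted p of 0.0197. The exact permutation test over 6435 splits gave an unadjusted p of 0.00513 and an adjusted p of 0.997.

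NUF2 was the 1 of the 3 genes with an unadjusted p under 0.05, which 1.9% of all tested probe sets had in the same direction. At an unadjusted p under 0.05 limma placed 128 of 3255 probe sets (3.93%), and the exact test 136 (4.18%). Without control animal 1 the NUF2 difference was -0.46 (95% interval -0.93 to 0.020). Adjusted for live weight it was -0.94 (SE 0.31), and among the 6 control and 4 high-oleic pigs of 109.5 to 118 kg it was -0.81 (SE 0.32), with adjusted p of 1.0 and 0.939. The adjusted p lay between 0.583 and 1.0 over all alternatives. All 3 measured adipocyte markers had higher means in high-oleic pigs (median difference 0.52), with mean log2 signals of 9.13 to 9.86 in control and 9.45 to 10.34 in high-oleic pigs. Of 10 smooth muscle and pericyte genes 9 were lower, with a median of -0.47. All 12 skeletal muscle genes were lower, with a median of -0.39, and all 3 erythroid genes higher, with a median of 0.52. Of 5 T and NK genes 4 were higher (median 0.29), as were 11 of 16 interferon genes (median 0.23). The scores of the skeletal muscle, T and NK, and interferon lists had r of -0.383, 0.289 and 0.440 with NUF2. Over all 3255 probe sets 53.2% were lower, with a median of -0.025, and no gene of these lists passed after adjustment. The bacterial control transcripts, with r = -0.512 for NUF2, were 5.74 ± 0.34 (SD, n = 7) in control and 6.06 ± 0.69 (SD, n = 8) in high-oleic pigs. The actin 3′ minus 5′ signal, with r = -0.448, was 0.90 ± 0.48 and 0.89 ± 0.58, with medians of 0.78 and 1.16. The part of these values in the NUF2 difference was not tested.

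TOP2A was 6.14 ± 0.68 (SD, n = 7) on the control diet and 5.91 ± 0.64 (SD, n = 8) on the high-oleic diet. The difference of -0.23 had a 95% interval of -0.90 to 0.45. Its adjusted p was 0.999 in limma, and its exact permutation p was 0.516 before adjustment. Without control animal 7 the difference was 0.0037. CCNB2 was 3.77 ± 0.59 and 3.79 ± 0.44 on the same diets, a difference of 0.025 with a 95% interval of -0.55 to 0.60. Its adjusted p was 0.999 in limma, and its exact permutation p was 0.932 before adjustment. Its sign turned when control animal 2, 3, 5 or 6, or high-oleic animal 1, 6 or 8, was left out, with values down to -0.062, and adjustment for live weight gave -0.22. Whether NUF2 differed from TOP2A or CCNB2 in its response to diet was not tested.

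Over the 16 measured cell cycle genes, 6 had higher and 10 lower signal on the high-oleic diet and 0 passed the limma test in either direction, with 3 at an unadjusted p under 0.05. Their median difference was -0.10, against -0.025 over all 3255 probe sets. Of all these probe sets 53.2% were lower and 3.93% had an unadjusted p under 0.05 in limma, in either direction. The 3 cell cycle genes were NUF2, GADD45G at -0.76 (95% interval -1.46 to -0.056) and TFDP2 at -0.61 (95% interval -1.17 to -0.048). GADD45G encodes a stress-induced growth arrest protein. Both had an adjusted p of 0.999 in limma. Without TOP2A, CCNB2 and NUF2 the median difference of the 13 other genes was -0.026.

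By role, the cyclin and kinase list, with CCNB2 and MYBL2 of 35 genes, had a median difference of 0.05. For the kinetochore list, with NUF2, CENPH, ZWILCH and NSL1 of 38, the median was 0.04 and only NUF2 had an interval that left out 0. The other kinetochore genes differed by 0.14 for CENPH, 0.11 for ZWILCH and -0.026 for NSL1. For chromosome structure and spindle, with TOP2A, NCAPD3 and HMMR of 52, the median was -0.23, and HMMR differed by -0.36 (95% interval -0.88 to 0.15). In DNA replication GINS3 alone was measured of 65 genes, at 0.056, and at -0.51 after adjustment for live weight. The kinetochore median was -0.32 after that adjustment. The G1 list had 6 of 36 genes measured and a median of -0.22, with 5 of 6 lower.

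**Figure D4:**
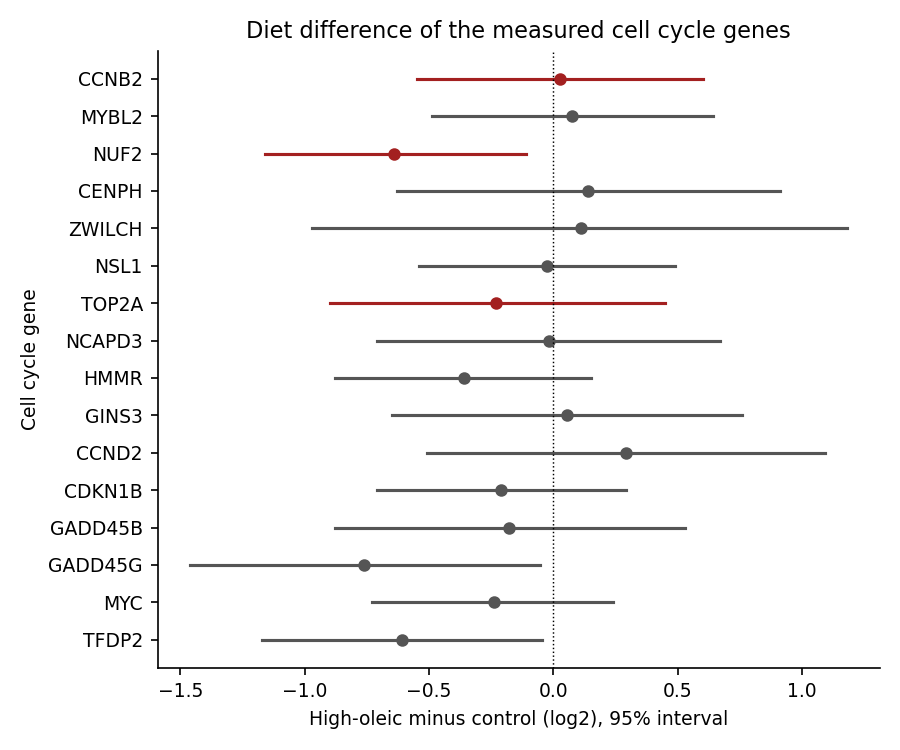
Difference in log2 signal between diets (high-oleic minus control) for the 16 measured cell cycle genes, with limma's 95% interval as a line and TOP2A, CCNB2 and NUF2 in red. Intervals for NUF2 (-0.64), GADD45G (-0.76) and TFDP2 (-0.61) lie below 0, and none of the 16 passed after adjustment.

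Live weight gave no relation that passed a test with any of the 3 genes. At fixed diet the slope per 10 kg was -0.38 for NUF2 (SE 0.23, adjusted p = 0.916 in limma), -0.30 for CCNB2 (SE 0.26, adjusted p = 0.919 in limma) and 0.019 for TOP2A (SE 0.32, adjusted p = 0.998 in limma). Over all probe sets 0.0% passed the adjusted test for live weight and 124 of 3255 (3.81%) had an unadjusted p under 0.05. Negative slopes made up 45.6% of all. Without control animal 5, the heaviest pig, the slopes were -0.30 for TOP2A, -0.61 for CCNB2 and -0.52 for NUF2.

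Across the 15 pigs without regard to diet, live weight gave r = 0.124 with TOP2A (permutation p = 0.633, rho = 0.129, permutation p = 0.648). It gave r = -0.278 with CCNB2 (permutation p = 0.303, rho = -0.343, permutation p = 0.213) and r = 0.072 with NUF2 (permutation p = 0.768, rho = 0.279, permutation p = 0.314). The adjusted p over these 3 relations was 0.768 for each r, and for rho it was 0.648, 0.471 and 0.471. Without the pigs of 133 and 104.5 kg, the farthest from the median weight, r was 0.079 for TOP2A (permutation p = 0.801), -0.130 for CCNB2 (permutation p = 0.683) and 0.294 for NUF2 (permutation p = 0.336), with an adjusted p of 0.801 for each.

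The sign of the relation for NUF2 differed between all pigs and each diet, the control pigs being on average both heavier and higher in NUF2. Within the control diet NUF2 gave r = -0.555 with live weight (exact permutation p = 0.161, adjusted p = 0.484), with rho = -0.750 (exact permutation p = 0.0663, adjusted p = 0.199). Within the high-oleic diet it gave r = -0.250 (exact permutation p = 0.539, adjusted p = 0.539). CCNB2 gave r = -0.229 on the control diet (exact permutation p = 0.533) and -0.593 on the high-oleic diet (exact permutation p = 0.117, adjusted p = 0.350). TOP2A gave 0.167 and -0.262 (exact permutation p = 0.645 and 0.523). The pigs with the highest signals were not the heaviest: control animal 7 weighed 115 kg, control animal 1 112.5 kg and high-oleic animal 8 106.5 kg. The heaviest pig, control animal 5 at 133 kg, ranked 3 of 15 for TOP2A, 10 for CCNB2 and 9 for NUF2.

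**Figure D5:**
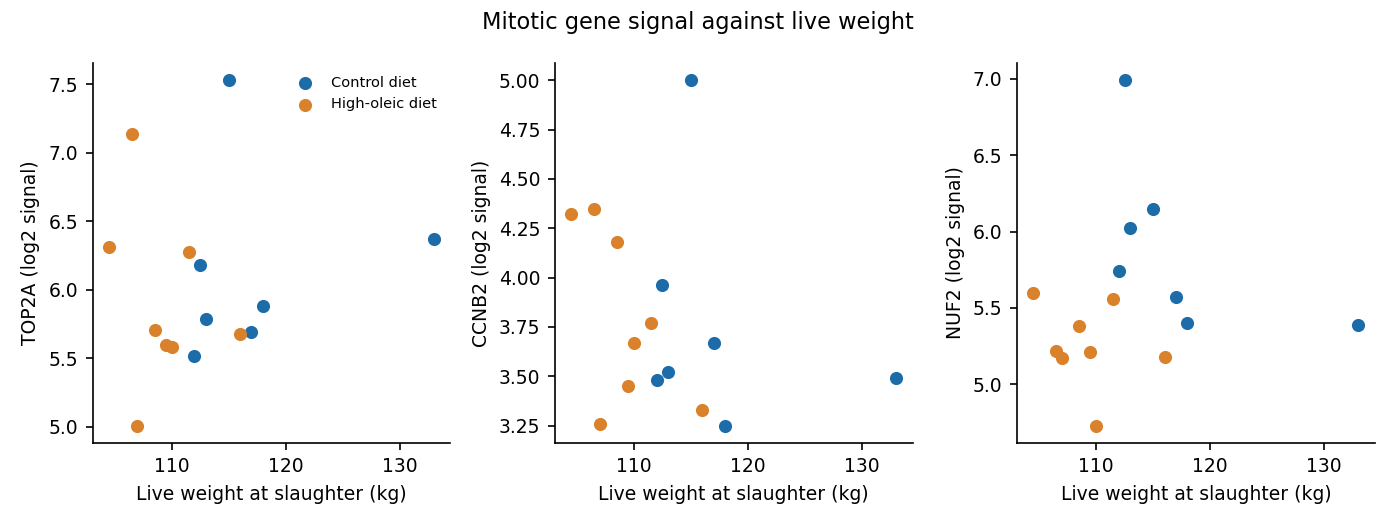
Log2 signal of TOP2A, CCNB2 and NUF2 (vertical axes) against live weight at slaughter in kg (horizontal axes) for 7 control and 8 high-oleic pigs. The pigs highest in TOP2A weighed 115 and 106.5 kg, and the pig of 133 kg lies within the range of the others for all 3 genes.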

How the data were processed

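Backfat RNA of 15 pigs was hybridised to Affymetrix porcine arrays, 1 array per pig. The authors deposited log2 signals, made with GCOS and GCRMA per the submitters' processing notes, whose versions and settings the sources used here do not give. The table holds 3272 probe sets, and every one has at least 3 arrays 1.5-fold or more from its median, so genes that vary little are not analysed here. After 17 control probe sets were set aside, 3255 were tested, of which 1455 had 1 gene symbol, 27 several and 1773 none in the platform annotation.

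Values were used as deposited. Diet, and live weight with diet as a covariate, were tested in limma 3.58.1 (R 4.3.3) with Benjamini-Hochberg adjustment over all 3255 probe sets at a threshold of 0.05. Single values were also tested by exact permutation over samples. Correlations between genes used 100000 permutations over 15 pigs, or all orders within a diet, two-sided. A list score is the mean over its measured genes of the log2 signal centred over pigs, with the probe set of highest mean for each gene. The scripts were tested on simulated data.

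Named were TOP2A, CCNB2 and NUF2, at most 4 genes per cell cycle list by mean signal, and the 8 genes most and the 4 least correlated with the mean of the 3. These genes and all lists were chosen with earlier results of these data known. Alternatives were quantile and median scaling, filters on dim probe sets, live weight and replicate number in the fit, a weight window of 109.5 to 118 kg, and each pig left out. The leave-one-out check of the most alike genes was chosen after seeing the data.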

Additional observations from a re-analysis of the deposited data

Results flagged for a closer look

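In 8 checks for a pig far from the rest of its diet group, each set to mark about 1 in 20 by chance, 3 values stood apart. Both gene values came from control animal 7, and TOP2A and CCNB2 had r = 0.880 among control pigs, so the checks were not independent. The gap to the next pig was 0.577 of the range for TOP2A and 0.593 for CCNB2, against a cutoff of 0.568. Whether 3 is more than chance gives was not tested. Control animal 7 had a TOP2A signal of 7.53, the other control pigs having a median of 5.84. Its CCNB2 signal was 5.0, the others' median being 3.5. Control animal 5 weighed 133 kg, whereas the remaining control pigs had a median of 114 kg. NUF2 had no such value in either diet.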

How the results depend on the processing

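The NUF2 difference between diets kept its direction and missed the adjusted threshold in all 24 alternatives, between -0.94 and -0.46, and 0 probe sets passed for diet in each. In the labels the replicate numbers only name animals, and whether they also follow a batch is not given. Correlations of same-numbered deviations ran from -0.161 to 0.296, which cannot settle that. With the replicate block the difference was -0.63 for NUF2, -0.40 for TOP2A and -0.055 for CCNB2. CCNB2 also turned with live weight in the fit (-0.22) and in the weight window (-0.26), and ran from -0.062 to 0.23 with each pig left out, TOP2A from -0.40 to 0.0037. The kinetochore median was -0.32 with live weight in the fit. The weight slope of TOP2A was -0.041 after quantile scaling, -0.038 after median centring and -0.30 to 0.11 with each pig left out. That of NUF2 was 0.056 with weight alone. Probe sets passing for weight were 1 with weight alone and 0 to 5 with each pig left out, 5 when control animal 2 and 2 when high-oleic animal 7 was omitted. The correlation of TOP2A with CCNB2 was 0.493 without the 2 farthest pigs, 0.880 in control and 0.772 in high-oleic pigs, and 0.464 by rank in control pigs. That of TOP2A with NUF2 was 0.810 by rank in high-oleic pigs. Weight with TOP2A gave -0.262 and by rank -0.357 in high-oleic pigs. Weight with NUF2 gave -0.490 after diet means, -0.555 and by rank -0.750 in control pigs, -0.250 and by rank -0.357 in high-oleic pigs. Of the 8 most alike genes 3 stayed by rank, 4 after diet means and 0 to 8 with each pig left out. CCNB2 has no value under the filter on dim probe sets. The causes of these shifts were not tested. The number of arrays limits precision. The GINS3 difference was -0.51 with live weight in the fit and -0.20 to 0.22 with each pig left out.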
